A study of Sus scrofa with 20 samples.

Results

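Kidney RNA from 20 pigs was examined for SGK1, the serum- and glucocorticoid-regulated kinase, and for 3 transport genes of the distal nephron, SCNN1B, KCNJ1 and AQP3. These members were chosen with earlier results of these data known, so the share of them that passes is no blind comparison with all probe sets. By symbol, every probe set that the platform annotation assigns to one of the 4 genes was taken. This gave 4 probe sets, 1 per gene, out of 23999 tested. They stand for 4 of the 6765 genes with a probe set of their own symbol. The 10 ND animals had a balloon catheter inflated under the dura until neurologic death (ND) was established, and the 10 control animals did not. Burr hole, catheters, anaesthesia and mechanical ventilation were common to both groups, as were boluses of 2 cc/kg of 0.9% saline to hold the mean arterial pressure over 35 mmHg. Kidney was frozen 6 h after randomization and hybridized to 1-colour arrays, 1 array per animal. The labels give no breed, sex or age, and do not say which part of the kidney was sampled. Each animal is given by its group and number in the labels, as in ND_47 or Control_02. The comparison asks what ND does to kidney expression. Signals are log2 values per probe set, and all differences are ND minus control on that scale. The limma test was run on all 23999 probe sets, with p-values adjusted over them by the Benjamini-Hochberg method, and a change was called at an adjusted p under 0.05.

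SGK1 is a kinase whose transcription is raised by glucocorticoids and by aldosterone. In the aldosterone-sensitive distal nephron it phosphorylates the ubiquitin ligase NEDD4L, which otherwise removes the epithelial sodium channel from the apical membrane. SCNN1B encodes the beta subunit of that channel. KCNJ1 encodes ROMK, the apical potassium channel of the thick ascending limb and collecting duct, and AQP3 encodes a basolateral water and glycerol channel of collecting duct principal cells.

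Some arrays stood apart on measures taken over the whole array or on control probe sets. ND_47 had the lowest mean correlation with the other arrays of its group, 0.970, against 0.984 to 0.988 for the other ND arrays. Control arrays ran from 0.987 to 0.991. The group means of this correlation were 0.984 in ND and 0.989 in control arrays (permutation test, adjusted p = 0.0021 over 6 array measures). Arrays of a group share pairs in these values, and ND_47 enters those of all other ND arrays. The values were not recomputed for the permuted labels, so this p-value does not measure a difference between independent arrays. The bioB hybridization controls averaged 8.97 ± 0.23 in ND and 9.33 ± 0.20 in control arrays (SD, n = 10 each), a difference of -0.36 (permutation test, adjusted p = 0.00537 over 6 array measures). Array medians were 0.09 higher in ND (adjusted p = 0.0125). The 3′ minus 5′ signal of the actin probe sets, a measure of RNA integrity, was 4.01 ± 0.74 in ND and 4.14 ± 0.60 in control arrays (SD, n = 10 each; permutation adjusted p = 0.680). Control_02 and Control_134 read 2.44 and 2.72 on the dap poly-A spike probe sets, at the background level of 2.79, where the other control arrays read 5.98 to 7.98 and the ND arrays 6.79 to 8.06. With group means removed, the array median had r = 0.531 with KCNJ1. SCNN1B had r = 0.509 with the mean correlation and r = 0.485 with the bioB level. These were the largest such values, and they were not tested. ND animals carried mostly low numbers, with 7 of 10 up to 100, against 1 of 10 controls, Control_02.

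SGK1 fell in ND kidneys, and it was the 1 member of 4 that passed the test, where 7.13% of all probe sets passed in either direction, with 3.33% lower and 3.8% higher in ND. Its signal ran from 10.76 to 12.78 in ND animals (median 12.16), and from 13.06 to 14.22 in control animals (median 13.32). All 10 ND animals lay below the lowest control, so the groups did not overlap, which held for 0.292% of probe sets in this direction. The means were 11.96 ± 0.74 in ND and 13.42 ± 0.35 in control animals (SD, n = 10 each). The difference was -1.46 ± 0.25 (SE; 95% interval -1.98 to -0.93; adjusted p = 0.00174), or 2.74-fold lower in ND. The call held without any 1 animal, with differences between -1.55 and -1.32 (adjusted p = 0.00128 to 0.00418). It was lost with a term for animal number up to 100 (-1.17, adjusted p = 0.0570) and with a term for the bioB controls (-1.33, adjusted p = 0.0643). In whole tissue, fewer cells of a type and less RNA per cell cannot be told apart.

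**Figure D1:**
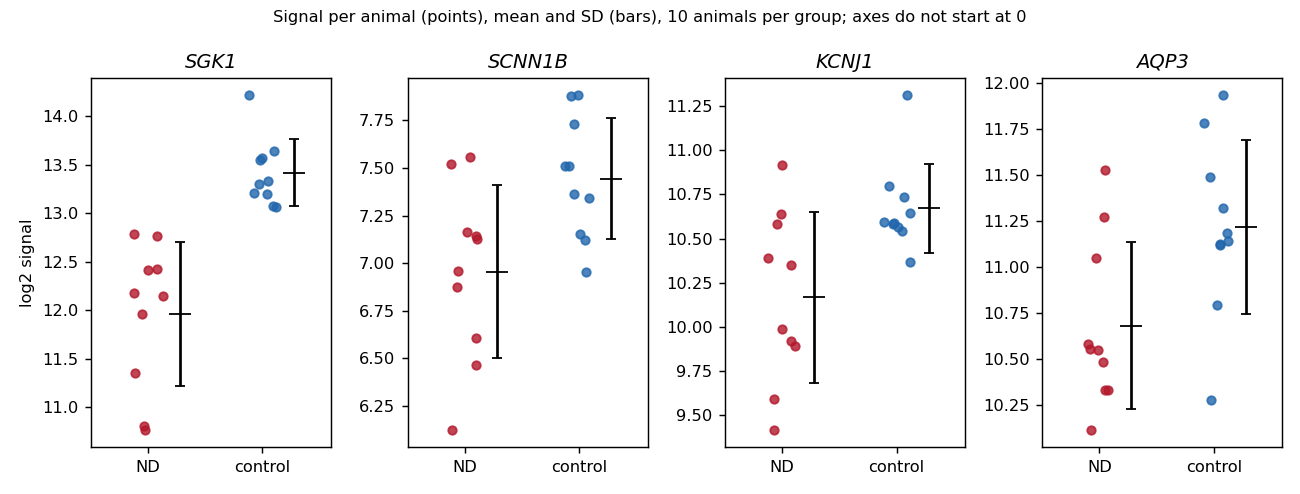
Log2 signal of SGK1, SCNN1B, KCNJ1 and AQP3 in each of 10 ND animals (red, left) and 10 control animals (blue, right), with the mean and SD of each group beside the points. The SGK1 groups are separate, with a highest ND value of 12.78 and a lowest control value of 13.06, while those of the other genes overlap.

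The ND animals were not equally low in SGK1. ND_100 (10.76), ND_92 (10.81) and ND_86 (11.35) were lowest, and ND_193 (12.78) and ND_01 (12.77) were highest, the first of them 0.28 below the lowest control. Among the 7 ND animals numbered up to 100, SGK1 was lower at each higher number, which was noticed in the values, and the 3 ND animals above 100 read 12.14 to 12.78. Highest and lowest ND animals differed 4.05-fold, and highest and lowest controls 2.23-fold. The SD was 2.14 times as large in ND as in controls, but the spread about the group median did not pass a permutation test chosen after the values were seen (mean absolute deviation 0.55 in ND and 0.25 in control animals, adjusted p = 0.205 over the 4 members). A larger SD in ND was seen for 62.6% of all probe sets.

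SCNN1B, KCNJ1 and AQP3 had lower means in ND by 0.49 to 0.54, and none passed the test. SCNN1B read 6.12 to 7.56 in ND animals (median 7.04) and 6.96 to 7.88 in control animals (median 7.44). The groups overlapped, with 8 of 10 ND animals below the control mean and 4 below the lowest control. Its difference was -0.49 ± 0.17 (SE; 95% interval -0.85 to -0.13; adjusted p = 0.0876), a level 71.2% of the control level. ND_47 was the lowest animal for this channel subunit, and without it the difference was -0.40. With the bioB term it was -0.18 (adjusted p = 0.696) and with the animal number term -0.31 (adjusted p = 0.611).

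KCNJ1 read 9.41 to 10.92 in ND animals (median 10.17) and 10.36 to 11.31 in control animals (median 10.59). The ND values spread across and below the narrow control range, 6 of them under the lowest control and ND_92 above all controls but 1. The difference for this potassium channel was -0.50 ± 0.17 (SE; 95% interval -0.86 to -0.15; adjusted p = 0.0758), and without ND_92 it was -0.59 and passed (adjusted p = 0.0333). Its SD was 1.92 times as large in ND, with mean absolute deviations of 0.41 in ND and 0.14 in control animals (permutation p = 0.0188, adjusted p = 0.0751).

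AQP3 read 10.11 to 11.53 in ND animals (median 10.55) and 10.28 to 11.93 in control animals (median 11.16). Of the ND animals 8 lay below the control mean, but only ND_31 was below the lowest control: Control_02 read 10.28 and the next control 10.79. The difference for this water channel was -0.54 ± 0.20 (SE; 95% interval -0.96 to -0.11; adjusted p = 0.106). Without Control_02 it was -0.64 and passed (adjusted p = 0.0440). At an unadjusted p under 0.05 all 3 were lower in ND, as were 18.9% of all probe sets.

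The calls of the transport genes changed with the scaling between arrays. After a shift that gave all arrays a common median, SCNN1B (-0.58, adjusted p = 0.0440), KCNJ1 (-0.59, adjusted p = 0.0202) and AQP3 (-0.63, adjusted p = 0.0490) passed. That scaling moved the median difference of all probe sets from -0.03 to -0.12, and 1061 probe sets were then called higher and 7728 lower in ND, where the values as deposited gave 913 higher and 799 lower and quantile normalization 917 higher and 1198 lower. Set against the median of all probe sets, the difference of SCNN1B was -0.46, that of KCNJ1 -0.48 and that of AQP3 -0.51, which such a shift cannot alter, since it moves all probe sets of an array alike. Without that shift AQP3 passed with array weights (-0.65, adjusted p = 0.0357). With quantile normalization none of the 3 passed (adjusted p = 0.0662, 0.0756 and 0.111).

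**Figure D2:**
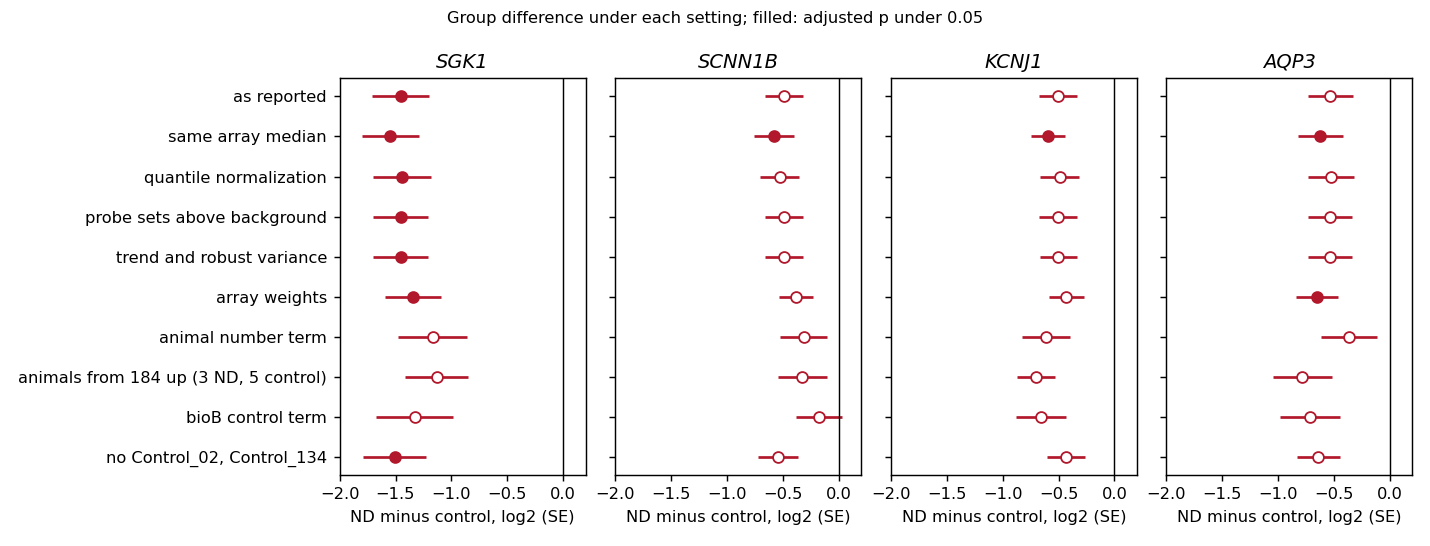
ND minus control difference (log2, with SE) of each member under the reported fit and 9 other settings, filled where the adjusted p was under 0.05. SGK1 stays between -1.54 and -1.13, and the transport genes are filled with a common array median and, for AQP3, with array weights.

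Animal number divides the groups unevenly, so the members were also read within ranges of it. Among the 8 animals with the highest numbers, from Control_184 upwards, SGK1 read 12.14 to 12.78 in 3 ND animals and 13.08 to 14.22 in 5 control animals, with no overlap. KCNJ1 (9.59 to 10.39 in ND, 10.54 to 10.80 in control animals) and AQP3 (10.33 to 11.05 in ND, 11.12 to 11.93 in control animals) did not overlap there either, as held for 5.56% of probe sets in this direction. SCNN1B did overlap (6.61 to 7.52 in ND, 7.12 to 7.73 in control animals). The differences were -1.13 for SGK1, -0.33 for SCNN1B, -0.70 for KCNJ1 and -0.79 for AQP3. None passed with these 8 arrays (adjusted p = 0.167, 0.550, 0.162 and 0.273). Set against all 9 controls above number 100, the same 3 ND animals still did not overlap in SGK1 (controls 13.06 to 14.22). KCNJ1 (controls 10.36 to 11.31) and AQP3 (controls 10.79 to 11.93) did overlap in that wider range, as did SCNN1B. Up to number 100 the 1 control gave no spread: Control_02 was above all 7 ND animals for SGK1 (13.20), and inside their range for SCNN1B (6.96), KCNJ1 (10.59) and AQP3 (10.28). The ND mean minus this 1 control was -1.41 for SGK1, -0.06 for SCNN1B and -0.33 for KCNJ1, and for AQP3 it was positive, at 0.42.

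**Figure D3:**
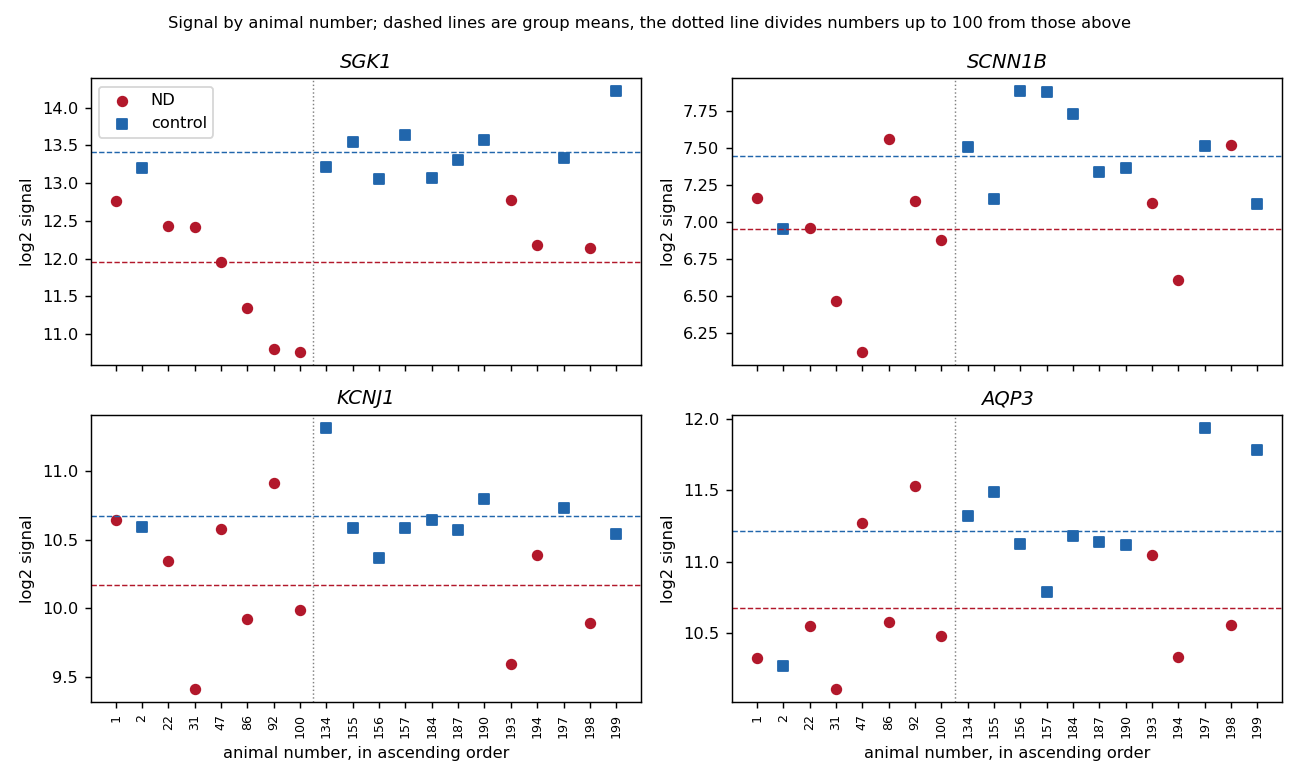
Log2 signal of each member by animal number in ascending order (ND red circles, control blue squares), with dashed group means and a dotted line between numbers up to 100 and those above. SGK1 is lower in ND than in control animals on both sides of the line, while SCNN1B, KCNJ1 and AQP3 of Control_02 lie among the ND values.

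All 3 transport genes were below the control mean in 6 ND animals, 2 were in 3 animals, and 1 was in ND_92. Relative to the control mean, ND_92 was at -2.61 for SGK1, but at 0.24 for KCNJ1 and 0.31 for AQP3. ND_100, the lowest in SGK1 (10.76), was at -0.57 for SCNN1B, -0.68 for KCNJ1 and -0.74 for AQP3, with 2 of the 3 under the lowest control. In ND_31 all 3 transport genes were under the lowest control, and its SGK1 (12.42) was above the ND median.

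Within each group no relation of SGK1 with SCNN1B, KCNJ1 or AQP3 passed. The 6 relations, 3 genes in 2 groups, were tested by permutation with 100000 resamples and adjusted together. With SCNN1B, Pearson's r was -0.12 in ND animals (rho = -0.02; permutation p = 0.731 for r and 0.974 for rho) and -0.37 in control animals (rho = -0.31; permutation p = 0.303 and 0.387). With KCNJ1, r was -0.26 in ND animals (rho = -0.25; permutation p = 0.457 and 0.493) and -0.13 in control animals (rho = -0.02; permutation p = 0.680 and 0.973). With AQP3, r was -0.35 in ND animals (rho = -0.35; permutation p = 0.319 and 0.331) and 0.38 in control animals (rho = 0.21; permutation p = 0.273 and 0.561). Adjusted over the 6 relations, the p-values were 0.637 to 0.731 for r and 0.841 to 0.974 for rho.

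Pearson's r was negative in 5 of the 6 relations, and AQP3 in control animals was the exception. With 10 animals per group the intervals were wide: for AQP3, -0.80 to 0.35 in ND and -0.33 to 0.81 in control animals (Fisher's z, 95%). Whether r differed between the groups was not tested. Single animals set several of these values. Without ND_92 and ND_100, farthest from the ND median of SGK1, r was -0.13 with SCNN1B, -0.03 with KCNJ1 and -0.12 with AQP3. Without ND_92 alone, r was 0.05 with KCNJ1 and 0.01 with AQP3. Without Control_157 and Control_199 the control values were -0.55, 0.13 and 0.29. Among the 7 ND animals numbered up to 100, r was -0.26, -0.11 and -0.50, and among the 9 controls above 100 it was -0.59, -0.16 and 0.32, for SCNN1B, KCNJ1 and AQP3 in that order. The 3 ND animals above 100 and the 1 control up to 100 are too few for a value.

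**Figure D4:**
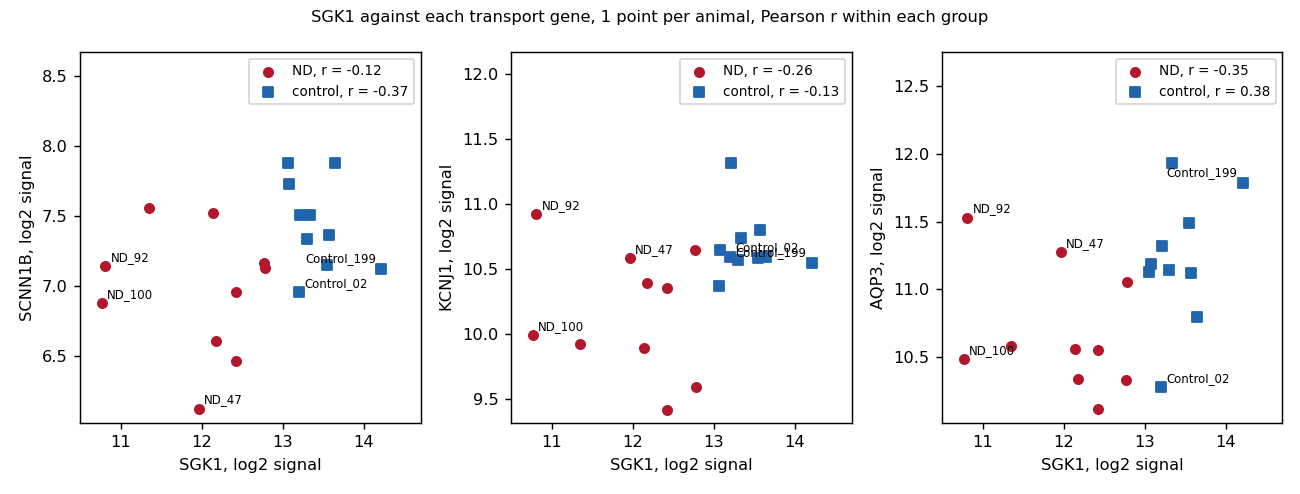
SGK1 signal (log2, horizontal) against that of SCNN1B, KCNJ1 and AQP3 (log2, vertical), 1 point per animal, ND as red circles and control as blue squares, with Pearson's r within each group. The groups separate along the SGK1 axis, and inside them r lies between -0.37 and 0.38.

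No relation of the transport genes with each other passed either. Of 6 such relations, added after the values were seen, the largest was KCNJ1 with AQP3 in ND animals (r = 0.47, rho = 0.26; permutation p = 0.174 and 0.470; adjusted p = 0.948 and 1.0). It was -0.16 without the 2 animals farthest from the KCNJ1 median.

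Around SGK1, most measured genes of corticosteroid signalling did not pass. The list held 25 genes of which 13 were measured by a probe set with 1 symbol, SGK1 included: 2 fell, 1 rose and 10 did not pass. Of the 13 differences 11 were negative, SGK1 itself and FOXO3, at background, included, where 3673 of all 6765 genes were negative. The median was -0.34, against -0.02 over all genes, of which 9.99% passed, with 4.55% lower and 5.44% higher in ND. TSC22D3, which encodes the glucocorticoid-induced leucine zipper, was the other gene that fell, with signals of 8.25 to 9.06 in ND animals and 10.45 to 11.64 in control animals and a difference of -2.26 (adjusted p = 5.71e-09). NR3C1, the glucocorticoid receptor, rose by 0.85 (5.83 to 6.63 in ND animals, 4.66 to 6.21 in control animals; adjusted p = 0.0124). Its call, unlike that of TSC22D3, was lost with the animal number term (0.67, adjusted p = 0.189), among the 8 animals with the highest numbers (1.20, adjusted p = 0.0668) and with the bioB term (0.64, adjusted p = 0.288). Inside the groups no relation of SGK1 with either gene passed: r with TSC22D3 was 0.08 in ND (rho = -0.10) and -0.43 in control animals (rho = -0.25), and r with NR3C1 0.06 in ND (rho = 0.15) and -0.25 in control animals (rho = -0.41). The adjusted permutation p was 0.872 for each r and 0.785 for each rho. Without the 2 animals farthest from the SGK1 median, r was -0.43 and 0.20 with TSC22D3, and 0.04 and -0.18 with NR3C1, in ND and control animals.

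SGK2, a paralogue of SGK1, was at -0.35 (adjusted p = 0.284), and its activating kinase PDPK1 at -0.06 (adjusted p = 0.564). MAPKAP1, a subunit of the mTORC2 complex that activates SGK1, was at -0.22 (adjusted p = 0.150), and the SGK substrate NDRG2 at -0.37 (adjusted p = 0.123). The kinases that control distal sodium chloride transport gave -0.70 for WNK1 (adjusted p = 0.208), -0.37 for WNK4 (adjusted p = 0.341) and 0.38 for OXSR1 (adjusted p = 0.0649). OXSR1 passed without ND_193, without Control_02 and without Control_02 and Control_134 together (adjusted p = 0.0219). It also passed with dim probe sets left out (0.0484), array weights (0.0264) and a common array median (0.0490), but not with the animal number term (0.769). The cortisone reductase HSD11B1 was at -0.10 (adjusted p = 0.714), and FOXO3, a transcription factor that SGK1 phosphorylates, read at background on all arrays.

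HSD11B2, which inactivates cortisol in aldosterone target cells and so keeps it off the mineralocorticoid receptor, differed by -0.34 ± 0.50 (SE; adjusted p = 0.642). It read 5.38 in ND_47, against 9.70 to 10.86 in the other 9 ND animals and 9.80 to 10.53 in control animals. Without ND_47 the difference was 0.16, so its sign rests on that animal. ND_47 was also the lowest ND animal for SCNN1B (6.12), WNK4 (5.71) and WNK1 (4.05), but not for KCNJ1 (10.58) or AQP3 (11.27).

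None of 9 measured genes of distal sodium and potassium transport passed, out of 24 listed. After KCNJ1 and SCNN1B the smallest p belonged to ST14 (matriptase, which activates the protease prostasin), at 0.72 (adjusted p = 0.0951, and 0.0191 without ND_31). PRSS8, which encodes prostasin, a protease that activates the sodium channel, was at -0.33 (adjusted p = 0.202). The Na,K-ATPase beta subunit ATP1B1 (-0.11, 95% interval -0.30 to 0.08), its regulator FXYD2 (0.02, -0.15 to 0.19) and the thick limb claudin CLDN10 (0.09, -0.09 to 0.27) had narrow intervals about 0. SCNN1A, the alpha subunit of the sodium channel, read at background on all arrays, so its probe set gives no ratio. KCNMA1, a flow-activated potassium channel, was above background on 1 ND array and on no control array. The list median was -0.05.

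Of 17 genes of water and osmolyte handling 3 were measured. AQP11, an intracellular aquaporin that in mice is found in the proximal tubule, fell by 1.03 on the log2 scale (± 0.28, SE; 8.35 to 10.46 in ND animals, 9.26 to 11.07 in control animals; adjusted p = 0.0275). Its call was lost without ND_86, ND_92 or Control_190 (adjusted p up to 0.0523), without Control_02 and Control_134 together (adjusted p = 0.0685), with array weights (-0.73, adjusted p = 0.0911), with the number and bioB terms (adjusted p = 0.215 and 0.331) and among the 8 highest numbers (adjusted p = 0.188). AVPR2, the vasopressin receptor of the collecting duct, read at background on all arrays. NEDD4L, the mineralocorticoid receptor NR3C2, SCNN1G and AQP2 were not analysed here.

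**Figure D5:**
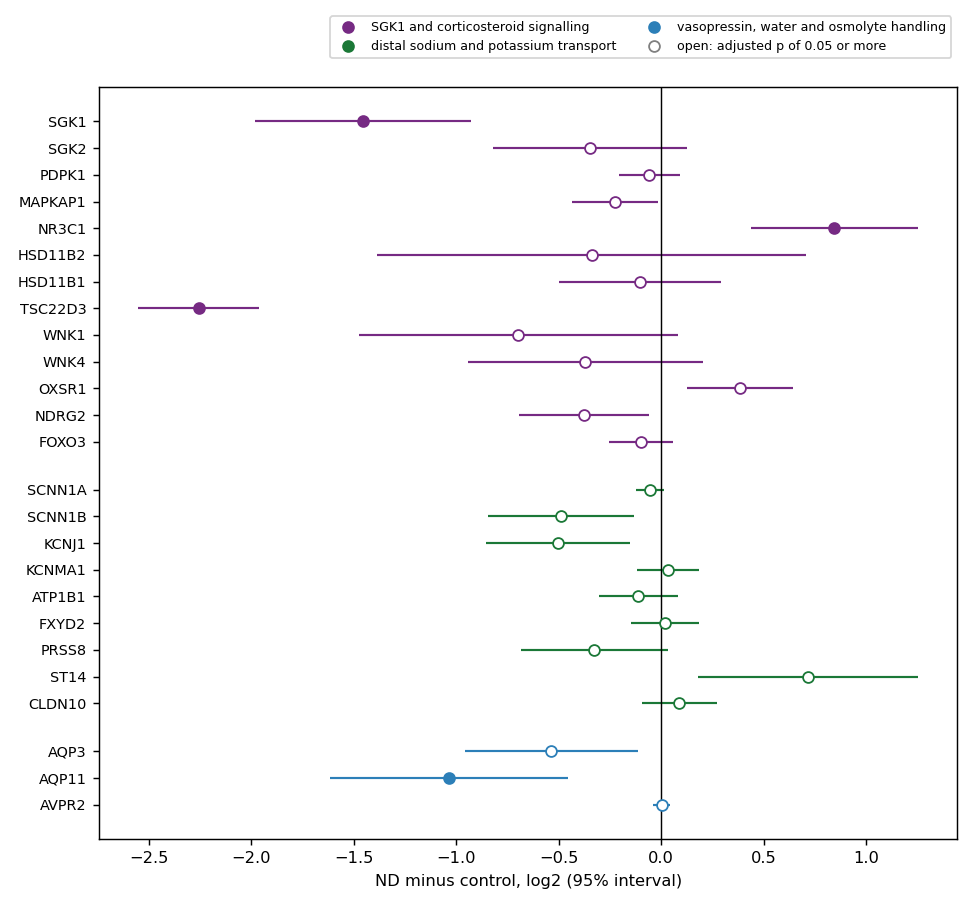
ND minus control difference (log2, with 95% interval) of the 25 measured genes in the 3 pathway lists, coloured by list and filled where the adjusted p was under 0.05. SGK1, TSC22D3 and AQP11 are filled below 0 and NR3C1 above 0, and the others are open.

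Markers of the distal segments did not fall as a list. None of 10 measured of 28 listed passed, with a median difference of 0.20 and none at background on all arrays. Of the 10 differences 3 were negative, where 3673 of all 6765 genes were. The 3 were AQP3 (-0.54), HSD11B2 (-0.34) and the intercalated cell proton pump subunit ATP6V0A4 (-0.23, adjusted p = 0.562). Over all 10 measured markers the mean level per array ran from 8.28 to 9.63 in ND and from 8.33 to 9.06 in control animals. Of those with positive differences, KRT18 was at 0.96 (adjusted p = 0.276), with 6.60 to 13.1 in ND and 6.20 to 8.27 in control animals. PTGER3 was at 0.59 (adjusted p = 0.131), MAL at 0.23 (adjusted p = 0.339) and KRT19 at 0.13 (adjusted p = 0.834). CDH1 (E-cadherin, strongest in distal tubules) was at 0.32 (adjusted p = 0.251) and the principal cell factor GATA3 at 0.16 (adjusted p = 0.568). ATP6V0D2, another subunit of the intercalated cell proton pump, was at 0.28 (adjusted p = 0.420). Beside the 5.44% of all genes that were called higher and the 4.55% called lower, 6 of 15 leukocyte markers rose and 2 fell, 4 were at background on all arrays, and the mean level was 3.83 to 5.21 in ND and 4.03 to 4.56 in control animals. Of 11 proximal tubule markers 2 fell (mean level 10.55 to 12.11 in ND, 11.51 to 12.01 in control animals). Among 11 endothelial, stromal and glomerular markers 2 rose (6.80 to 8.26 in ND, 6.47 to 7.34 in control animals), among 4 red cell markers none passed (4.08 to 4.42 in ND, 4.10 to 4.36 in control animals), and among 7 fat and adrenal markers 1 fell (2.87 to 3.04 in ND, 2.98 to 3.22 in control animals). The part of these in the SGK1 difference was not tested.

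The genes most like each member were sought over all 20 arrays after each group's mean was removed, so that the ND difference played no part, and are given as a description. Nearest to SGK1 among 6764 genes were DYRK3, a kinase (r = 0.67), RPP30, a ribonuclease P subunit (0.65), and ENOSF1 (0.64), and the most opposed was TMEM70, an ATP synthase assembly factor (-0.73). None of these 4 passed between the groups. Taken by group, r with the 3 nearest genes was 0.78, 0.83 and 0.74 in ND and 0.34, 0.36 and 0.23 in control animals, and this difference was not tested. The SD of SGK1 was 2.14 times as large in ND, so ND animals weighed more in the choice of these genes. A higher r in ND is thus partly fixed by that choice. By the same measure r of SGK1 was -0.18 with SCNN1B, -0.24 with KCNJ1 and -0.11 with AQP3, and 24.3%, 17.1% and 34.8% of genes had a lower r with SGK1.

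SCNN1B varied most closely with MGAT5, a glycan-branching enzyme (r = 0.79), VAMP2, a vesicle fusion protein (0.79), and the transcription factor CUX1 (0.77), and was most opposed to TYW5 (-0.80). For KCNJ1 the nearest were FAXDC2 (0.83), RGS2, a regulator of G protein signalling (0.80), and LOC100621931 (0.78), and the most opposed was GRHPR, the glyoxylate reductase (-0.78). AQP3 was nearest to ORAI1, a calcium channel subunit (0.76), the splicing regulator MBNL3 (0.75) and SLC45A3 (0.75), and most opposed to HYI (-0.76). These 3 nearest genes of AQP3 rose in ND, by 0.90, 0.62 and 0.76 (adjusted p = 0.0408, 0.0108 and 0.0343), where AQP3 itself was at -0.54.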

How the data were processed

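The deposited table holds a single value for each probe set on each array. The authors' values span 0.88 to 16.2 and were taken as log2 from that range. The unit, background correction, summarization and scaling are not given in the sources used here. Per the labels' protocols, TRIzol-extracted total RNA (250 ng) was made into biotin-labelled cRNA. The labels mention 2 specimens per animal and give 1 array per animal number, taken as 1 animal. Of 24123 probe sets, 124 controls were left out. Gene names came from the platform annotation, which gives 1 symbol to 10069 tested probe sets, several to 198 and none to 13732, and all 4 members matched a RefSeq gene table (Sscrofa11.1). Other genes were represented by their brightest probe set. Background, 2.79, was the highest value of 23 tag and tryptophan control probe sets. The arrays' number limits precision.

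Groups were compared with limma 3.58.1 (lmFit, eBayes without trend; R 4.3.3), without covariates. Permutation tests were two-sided, with 100000 resamples (numpy 2.4.6). The members and gene lists were chosen with earlier results of these data known. Named genes are the members, up to 3 list genes with the smallest p plus those that passed, 3 nearest genes and 1 opposed per member, and defining markers. The other list genes were named after their values were seen. The fit and the correlation test were tested on simulated data. Alternatives covered scaling, dim probe sets, variance model, array weights, animal number and leaving out animals. Terms for the bioB controls and leaving out Control_02 with Control_134 were chosen after seeing the data. Each member had 1 probe set under its symbol, so the planned use of another was not run.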

Additional observations from a re-analysis of the deposited data

Results flagged for a closer look

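Of 62 groups of 10 values examined, the pathway genes and array measures in ND and in control animals, 14 held an animal at one end that stood far from its nearest neighbour relative to the group's range (Dixon's criterion, which chance meets in about 1 of 20 groups). Among the members, SGK1 was highest in Control_199 (14.22, the next control 13.64) and KCNJ1 in Control_134 (11.31, the next control 10.80). ND_47 was set apart as the lowest ND animal in HSD11B2 (5.38, the next 9.70), WNK4 (5.71), ATP1B1 (13.44) and FXYD2 (13.55), and in the mean correlation of its array with its group (0.970). MAPKAP1 was lowest in Control_156 (7.41). The rest lie at or near background: FOXO3 in Control_02 (2.77), SCNN1A in ND_193 (2.30) and Control_157 (2.52), KCNMA1 in ND_193 (2.80) and Control_157 (2.33), and AVPR2 in ND_100 (1.68).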

How the results depend on the processing

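SGK1 kept its direction under all 9 alternatives and its call under 6. It missed the threshold with the animal number term (-1.17), among the 8 animals with the highest numbers (-1.13) and with the bioB term (-1.33). The transport genes stayed negative throughout. With a common array median SCNN1B (-0.58), KCNJ1 (-0.59) and AQP3 (-0.63) passed, as did AQP3 with array weights (-0.65, adjusted p = 0.0357). Leaving out 1 animal in turn gave -0.56 to -0.40 for SCNN1B, -0.59 to -0.42 for KCNJ1 and -0.64 to -0.46 for AQP3, and 1295 (without ND_92) to 2303 (without ND_193) called probe sets against 1712. That count was 8789 with a common array median, 505 with the animal number term, 57 among the 8 highest numbers, 299 with the bioB term and 619 at an adjusted p under 0.01. Called genes of corticosteroid signalling numbered 3, 6 with a common array median, and 1 with the number term, among the 8 highest numbers and with the bioB term. They numbered 4 with dim probe sets left out, with array weights and without Control_02 and Control_134. Those of sodium and potassium transport numbered 0, and 3 of 9 with a common array median, where 8789 of 23999 probe sets were called. The 3 were SCNN1B, KCNJ1 and SCNN1A, the last of which read at background on all arrays. Those of water handling numbered 1, 2 with a common array median, and 0 with the number term, among the 8 highest numbers, with the bioB term and without Control_02 and Control_134. The cause of these shifts was not tested. Within ND, r of SGK1 ran from -0.20 to 0.013 with SCNN1B, -0.46 to 0.046 with KCNJ1 and -0.54 to 0.0061 with AQP3 as 1 animal was left out. Within controls it ran from -0.59 to -0.15, -0.34 to 0.11 and 0.07 to 0.50. SGK1 with KCNJ1 in controls turned to 0.13 without the 2 animals farthest in SGK1. No relation passed under any alternative. No paired analysis was possible because the groups share no animal numbers.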

Other observations

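Relations of the members with the animal number, whose meaning the labels do not give, were added after the values were seen. In the 7 ND animals numbered up to 100 SGK1 was 12.77 in ND_01, 12.43 in ND_22, 12.42 in ND_31, 11.96 in ND_47, 11.35 in ND_86, 10.81 in ND_92 and 10.76 in ND_100, lower at each higher number. The ND animals above 100 did not continue this, with 12.78 in ND_193, 12.18 in ND_194 and 12.14 in ND_198, and the sequence, noticed in the values, was not tested. Over the 10 ND animals r of SGK1 with the number was -0.03 (rho = -0.27; permutation p = 0.932 and 0.448; -0.18 without the 2 farthest numbers). Of the 8 such relations, 4 members in 2 groups, the smallest p belonged to AQP3 in control animals (r = 0.76, rho = 0.45; permutation p = 0.0126 and 0.191; adjusted p = 0.101 and 0.720), and r was 0.55 without the 2 farthest numbers.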
